A study of Rattus norvegicus with 6 samples.

Results

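Organic anion and cation transporters were examined in kidneys of 2 rat strains through 9 genes, 5 that mainly bring organic ions or urate into the tubule cell and 4 that export them. The uptake carriers were Slc22a2, Slc22a5, Slc22a6, Slc22a8 and Slc22a12, and the efflux carriers were Slc47a1, Abcc2, Abcc4 and Abcb1a. Members were all probe sets that the array's annotation assigns to 1 of these symbols alone, which gave 11 probe sets for 9 of 14217 named genes. Where a gene had 2 probe sets, the one with the higher mean over all arrays was used, and the other served as a check. The choice of probe sets uses the annotation and the mean signal, not the difference between strains. The 9 genes themselves were chosen with earlier results of these data known.

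The 3 congenic rats were adult males of the strain S.LEW.D1MCO4x1x3Bx1, which carries Lewis rat DNA in a segment of chromosome 1 on the background of the S strain. The 3 S rats were adult males of the inbred Dahl salt-sensitive strain (SS/Jr), a model of hypertension on a salt load. Whole kidney RNA of each rat was put on 1 Affymetrix array, and by its title the series served the positional search for Adamts16 variants in inherited hypertension. Diet, age beyond adult and the limits of the donor segment were not stated in the labels. Each array carries its own animal number in the labels and was taken as 1 rat.

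The proximal tubule clears drugs, toxins and metabolites from the blood in 2 steps. Carriers on the blood side load the cell, the organic anion transporters by exchange for dicarboxylates and the organic cation transporters down the membrane potential. Carriers on the lumen side then release the substrate into the urine, either by exchange for protons or by hydrolysis of ATP. A further pair of Slc22 carriers sits on the lumen side and works in the opposite direction, recovering urate and carnitine from the filtrate.

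The deposited values are scaled probe set intensities, and values below are in that unit, as mean ± SD over 3 rats. Differences are log2 values, congenic minus S, so that a positive one means higher in congenic kidneys. The trimmed mean of every array was 500.2, array medians were 162 to 174 in congenic and 170 to 178 in S kidneys, and rank correlations were 0.946 to 0.961 between strains and 0.947 to 0.962 within them. The 3' to 5' ratio of the beta-actin control probe sets, a sign of RNA integrity, was 1.94 to 2.06 in congenic and 1.99 to 2.30 in S kidneys. That of Gapdh was 1.12 to 1.20 in congenic and 1.11 to 1.18 in S kidneys, and that of hexokinase 2.09 to 2.78 in congenic and 1.83 to 2.74 in S kidneys. All 19 proximal tubule markers on the array lay among the 15521 probe sets with signal enough to be tested, whereas the 3 liver markers (Alb, Apoa1 and Ttr) and 2 of 3 adrenal markers (Cyp11b1 and Star) did not. The third adrenal marker, Mrap, was tested and read 374 in congenic and 364 in S kidneys. All 9 main probe sets of the carriers were tested.

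None of the 9 carriers passed limma's threshold of adjusted p 0.05, which no probe set of the array passed (0%). Dropping S replicate 1 let 41 probe sets pass, dropping congenic replicate 1 let 6 pass and dropping congenic replicate 3 let 3 pass, with 0 carriers among them. The members of smallest p were Abcc4, an ATP-driven efflux pump, at 1.22-fold and Slc22a2, the organic cation transporter of the blood side, at 1.19-fold, both higher in congenic kidneys. These 2 genes, 22.2% of the members, had unadjusted p under 0.05 by limma, against 1602 probe sets (10.3%) over the whole array, of which 732 (4.72%) were higher and 870 (5.61%) lower in congenic kidneys. Without S replicate 1, S replicate 2 or congenic replicate 2 the count of members was 1, Abcc4. In all, 7 of the 9 carriers had a positive difference, with a median of 0.09 over the 9, where 48.2% of all probe sets tested were positive and their median was -0.01. After centring each array on its median, Slc22a12 turned positive too, and the share over the array was 62.6%. The counts are small, and with 3 rats against 3 the exact permutation test of a single gene cannot go below p = 0.1.

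**Figure D1:**
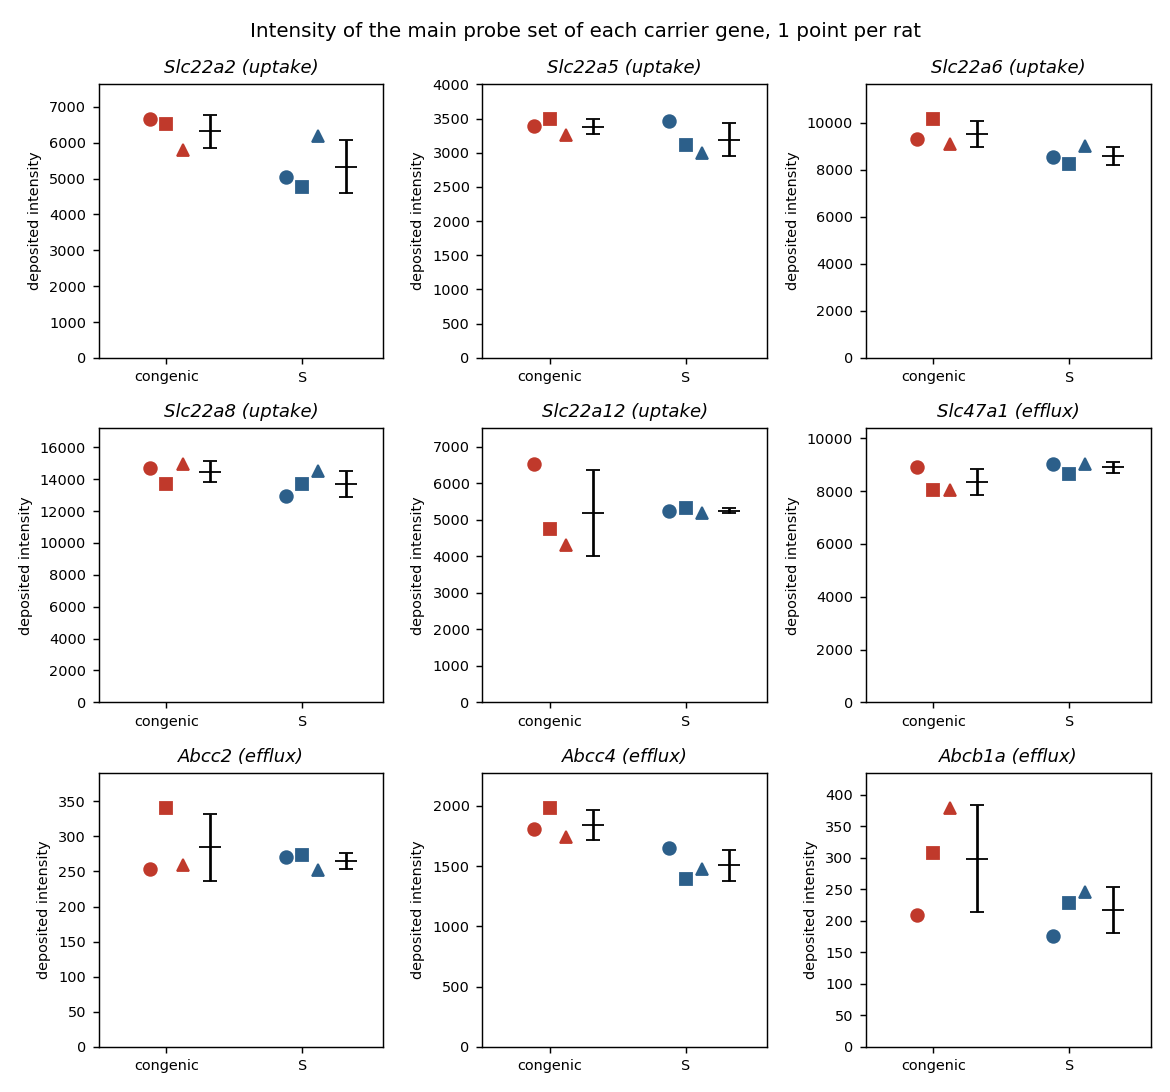
Deposited intensity (linear axis from 0) of the main probe set of each carrier gene, with the 3 congenic rats in red to the left of the 3 S rats in blue; circle, square and triangle mark replicates 1, 2 and 3, and the bar gives mean ± SD. The 3 congenic points lie above the 3 S points for Slc22a6 and Abcc4, and the congenic points of Slc22a12 run from 4300 to 6528.

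Of the uptake carriers on the blood side, Slc22a2 moves creatinine, metformin and other organic cations from blood into the cell. Its intensity was 6653, 6530 and 5801 in the congenic rats, against 5043, 4781 and 6187 in the S rats. The strains overlapped because S replicate 3 lay above congenic replicate 3. The means were 6328 ± 460 in congenic and 5337 ± 748 in S kidneys, a log2 difference of 0.25 ± 0.10 (SE; 95% interval 0.04 to 0.46; limma, unadjusted p = 0.0219, adjusted p = 0.402; exact permutation p = 0.2). Its difference was 0.16 after each array was lowered by the mean deviation of its proximal tubule markers, with unadjusted p = 0.117 in limma. Slc22a2 lies on chromosome 1, as do Slc22a6, Slc22a8, Slc22a12, Abcc2 and Adamts16. In the gene order of assembly GRCr8, 79 protein-coding genes stand between Slc22a2 and Adamts16, and 2355 to 2784 between Adamts16 and each of the other 4. Its upstream sequence is shown because it is the carrier nearest to the gene the series was about. The 250 bases before its annotated start (chr1:50711020-50711269, minus strand, RefSeq, GRCr8) hold none of the 3 motifs searched, which are described with the other promoters.
Slc22a2: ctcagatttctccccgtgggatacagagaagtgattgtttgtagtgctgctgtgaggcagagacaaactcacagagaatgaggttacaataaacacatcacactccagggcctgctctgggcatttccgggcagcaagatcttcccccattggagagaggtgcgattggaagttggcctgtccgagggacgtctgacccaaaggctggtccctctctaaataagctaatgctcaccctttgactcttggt

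Slc22a6 and Slc22a8 encode OAT1 and OAT3, the exchangers that load the proximal tubule cell with para-aminohippurate, diuretics and many other anionic drugs. They are direct neighbours on chromosome 1, with 0 protein-coding genes between them. Slc22a6 read 9303, 10151 and 9106 in congenic rats, against 8562, 8255 and 9007 in S rats. All 3 congenic rats lay above all 3 S rats, though the lowest congenic value, 9106, was close to the highest S value, 9007. Groups that did not overlap were found for 2 of the 9 carriers, Slc22a6 and Abcc4, both higher in congenic kidneys. Over the array this held for 16% of probe sets tested, 7.98% higher and 7.99% lower in congenic kidneys. Slc22a6 differed by 0.14 ± 0.08 on the log2 scale (SE; limma, unadjusted p = 0.0815, adjusted p = 0.536; exact permutation p = 0.1, the smallest possible).

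Slc22a8 read 14732, 13726 and 14961 in congenic rats, against 12917, 13700 and 14538 in S rats, and the strains overlapped. Its log2 difference was 0.08 ± 0.08 (SE), with an interval of -0.09 to 0.24, and that of its second probe set was 0.04 ± 0.11. The adjusted p values in limma were 0.758 and 0.92. The main value was 0.04 without S replicate 1, 0.12 without S replicate 3 and 0.0037 after cyclic loess. Both neighbours thus had positive differences that did not pass the test. Lowering each array by its proximal tubule markers left 0.06 for Slc22a6 and -0.01 for Slc22a8. For Slc22a6, quantile normalisation gave 0.07 and median centring 0.22 (unadjusted p = 0.0252).

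Slc22a5 encodes OCTN2, the sodium-coupled carnitine carrier of the brush border, and Slc22a12 encodes the urate exchanger URAT1. Slc22a5 read 3399, 3488 and 3264 in congenic rats, against 3458, 3117 and 2990 in S rats. S replicate 1 lay among the congenic values, and the log2 difference was 0.09 with an interval of -0.09 to 0.27 (limma, adjusted p = 0.745). It was 0.15 without S replicate 1 and 0.04 without S replicate 3. Slc22a12 read 6528, 4743 and 4300 in congenic rats, against 5245, 5312 and 5180 in S rats. The S rats lay close together, with a coefficient of variation of 1.26%, whereas 1 congenic rat lay above all of them and the other two below. The log2 difference of -0.04 (limma, interval -0.29 to 0.22, adjusted p = 0.935) changed sign with the rats included. Leaving out congenic replicate 1 gave -0.22, and leaving out the second or the third gave 0.01 or 0.09.

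As a group, the uptake carriers had 4 of 5 positive differences and a median of 0.09. The median was 0.06 after quantile normalisation, 0.05 after cyclic loess, 0.16 with arrays centred on the median and 0.14 without S replicate 1. With median centring all 5 were positive. Proximal tubule markers, none of them a member, also had mostly positive differences, 15 of 19 with a median of 0.11 (0.07 without S replicate 2), and 13 of 19 after quantile normalisation or cyclic loess. Their summed intensity was 272690 to 302430 in congenic and 247240 to 278840 in S kidneys, with overlap. Their part in the carrier values was not tested. Subtracting the mean deviation of the markers takes the same 0.089 off every log2 difference, so the shift of each carrier is fixed in advance. In bulk tissue, fewer cells of a type and less RNA per cell cannot be told apart. Lowered by these markers, the uptake carriers had 2 of 5 positive differences and a median of -7.5e-04, where 28.8% of all probe sets tested were positive.

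**Figure D2:**
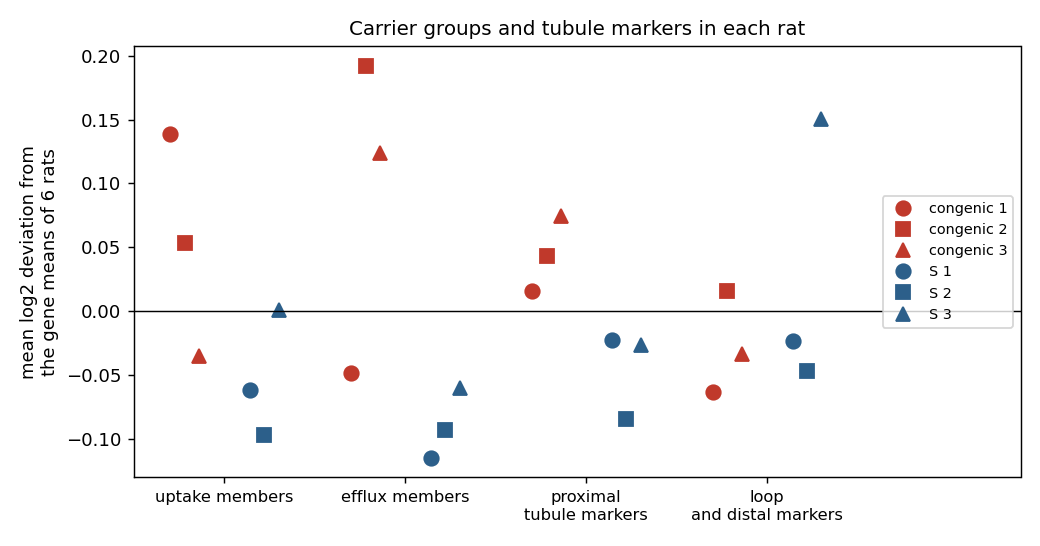
Mean log2 deviation of the 5 uptake carriers, the 4 efflux carriers, the 19 proximal tubule markers and the 7 tested loop of Henle and distal tubule markers in each rat, relative to the gene means over the 6 rats; congenic rats are red and to the left, S rats blue. The proximal tubule markers lie between 0.02 and 0.07 in congenic rats and between -0.08 and -0.02 in S rats, while the uptake carriers overlap.

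Of the efflux carriers, Abcc4 (MRP4) pumps cyclic nucleotides, urate and conjugated anions into the tubular lumen with energy from ATP. It read 1804, 1979 and 1743 in congenic rats, against 1648, 1397 and 1475 in S rats. Every congenic rat lay above every S rat. The means were 1842 ± 122 in congenic and 1507 ± 129 in S kidneys. On the log2 scale they differed by 0.29 ± 0.10 (SE; 95% interval 0.08 to 0.50; limma, unadjusted p = 0.00916, adjusted p = 0.313; exact permutation p = 0.1). Over the 18 alternatives it ran from 0.20 to 0.36, and the adjusted p was never below 0.193. It was 0.20 (unadjusted p = 0.0645) with the arrays lowered by their proximal tubule markers.

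The upstream sequences of Slc22a8 and Abcc4 are shown beside that of Slc22a2 because they hold the motifs found among the carriers, with matches in capitals. The motifs were the half-site of the nuclear factor HNF1 (GTTAAT), the TATA box (TATAAA) and the GC box (GGGCGG), searched on both strands in the 250 bases before the start. The windows are chr1:214927034-214927283 on the plus strand and chr15:102181365-102181614 on the minus strand (RefSeq, GRCr8).
Slc22a8: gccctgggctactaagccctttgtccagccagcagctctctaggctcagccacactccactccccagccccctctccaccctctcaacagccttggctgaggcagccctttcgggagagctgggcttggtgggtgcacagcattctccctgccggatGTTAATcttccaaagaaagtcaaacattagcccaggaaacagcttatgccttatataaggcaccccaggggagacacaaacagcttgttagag
Abcc4: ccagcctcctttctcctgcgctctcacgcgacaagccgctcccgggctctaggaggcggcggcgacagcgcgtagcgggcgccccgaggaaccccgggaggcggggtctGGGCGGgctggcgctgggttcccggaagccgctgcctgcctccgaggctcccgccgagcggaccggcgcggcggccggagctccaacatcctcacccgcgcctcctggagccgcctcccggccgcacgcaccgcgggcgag

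Of the 9 carriers, 7 matched an entry of the promoter table, all but Slc22a6 and Slc47a1. Slc22a8 held the HNF1 half-site, as did Abcc2, so that 2 of 7 carriers had it, against 6.45% of all 33469 promoters. The GC box was found in 4 of 7, namely Slc22a5, Abcc2, Abcc4 and Abcb1a, against 30.5% of all promoters. The exact letters TATAAA were found in 0 of 7 against 12.9%. Variants of the motifs, such as the tatataag upstream of Slc22a8, were not counted. The GC content was 77.6% upstream of Abcc4 and 74.4% upstream of Slc22a5, while it was 51.2% for Slc22a2, 56% for Slc22a8 and 46% for Slc22a12, with a median of 51.2% over all promoters. A match describes these letters and not binding of a factor.

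Abcb1a encodes P-glycoprotein, the ATP-driven pump that expels hydrophobic drugs and cations. Its main probe set read 210, 307 and 378 in congenic rats, against 176, 228 and 246 in S rats. The strains overlapped, since congenic replicate 1 lay below S replicates 2 and 3. Its log2 difference of 0.43 ± 0.23 had an interval of -0.07 to 0.93 (SE; limma, unadjusted p = 0.0853, adjusted p = 0.544), and it was 0.24 without congenic replicate 3. It was 0.67 without congenic replicate 1, 0.60 with the title number as a block and 0.50 with median centring. In these 3 alternatives limma gave unadjusted p of 0.0117, 0.0152 and 0.0416. No other alternative with a test was under 0.05, and without congenic replicate 3 the unadjusted p in limma was 0.348. The lowest adjusted p among all its alternatives was 0.322.

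The second probe set of Abcb1a, under the filter on low signals, read 156, 210 and 205 in congenic rats, against 168, 108 and 119 in S rats. The strains overlapped through congenic replicate 1 and S replicate 1, and the log2 difference was 0.55 ± 0.25 (SE; limma on all probe sets, adjusted p = 0.647). A further probe set, not a member because the annotation joins Abcb1a and its close paralogue Abcb1b, read 302, 350 and 354 in congenic rats, against 242, 209 and 188 in S rats. Here all congenic rats lay above all S rats, and the log2 difference was 0.66 ± 0.19 (SE; limma, unadjusted p = 0.00298, adjusted p = 0.257). The signal of the 2 genes cannot be separated on that probe set.

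Abcc2 (MRP2) pumps glucuronides and other conjugates across the brush border. It read 254, 340 and 260 in congenic rats, against 271, 273 and 252 in S rats. Congenic replicate 2 stood above the other 5 rats, and without it the log2 difference of 0.09 (limma, interval -0.31 to 0.49, adjusted p = 0.90) was -0.05. Dropping congenic replicate 1 gave 0.16, dropping congenic replicate 3 gave 0.15 and dropping S replicate 3 gave 0.05. Slc47a1 (MATE1) completes cation secretion by exchange for protons at the brush border. It read 8900, 8055 and 8040 in congenic rats, against 9032, 8662 and 9013 in S rats, with overlap. Its log2 difference was -0.10 with an interval of -0.26 to 0.06 (limma, unadjusted p = 0.22, adjusted p = 0.677). Slc22a2 and Slc47a1, which act in series on cations, therefore had differences of opposite sign, 0.25 and -0.10, and neither passed the adjusted threshold. The difference of Slc47a1 was -0.15 (unadjusted p = 0.0432) after quantile normalisation, -0.03 with median centring and -0.19 (unadjusted p = 0.0306) with arrays lowered by their proximal tubule markers. The last of these limma p values takes the marker deviations as known, and that setting was chosen after seeing the data.

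**Figure D3:**
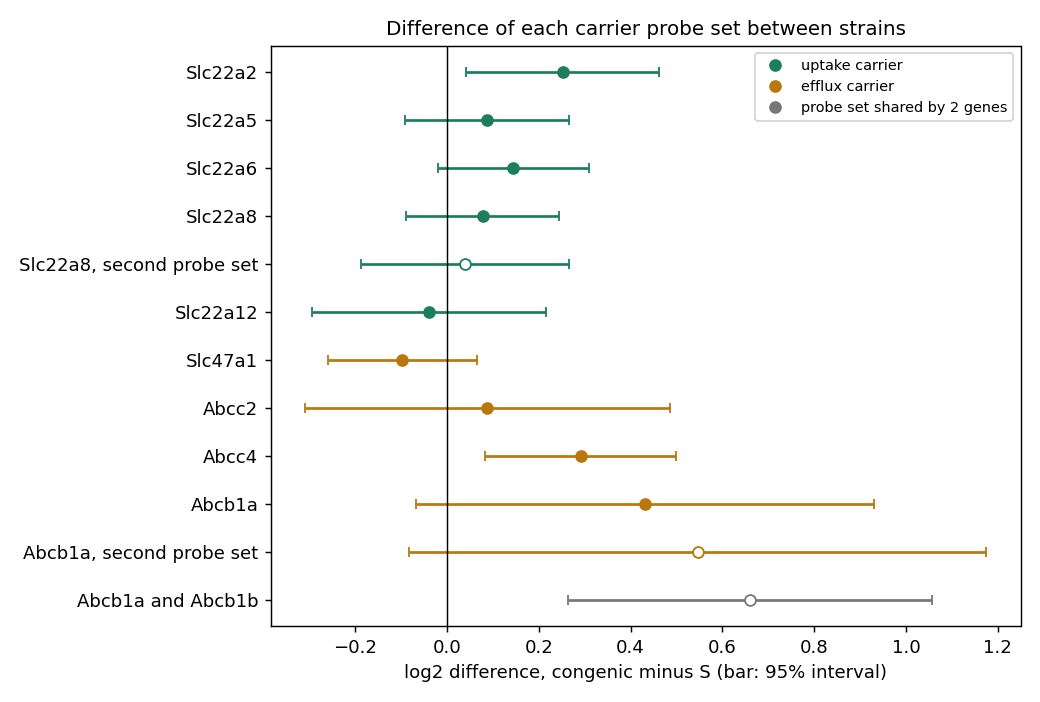
Log2 difference, congenic minus S, of the 11 carrier probe sets and of the probe set shared by Abcb1a and Abcb1b, with 95% intervals from limma; green marks uptake carriers, orange efflux carriers and grey the shared probe set, and open circles are second or shared probe sets. The intervals of Slc22a2 (0.04 to 0.46), Abcc4 (0.08 to 0.50) and the shared probe set (0.26 to 1.06) lie above 0.

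As a group, the efflux carriers had 3 of 4 positive differences and a median of 0.19. Quantile normalisation and cyclic loess each gave a median of 0.21. It was 0.26 with median centring, 0.10 without congenic replicate 2 and 0.10 with arrays lowered by their proximal tubule markers, where 2 of 4 were positive. Averaged over the 4 genes, log2 deviations from the gene means were -0.05, 0.19 and 0.12 in the congenic rats, and -0.11, -0.09 and -0.06 in the S rats. For the uptake carriers they were 0.14, 0.05 and -0.03 in congenic rats, and -0.06, -0.10 and 8.2e-04 in S rats. Congenic replicate 1 thus had the highest mean of the congenic rats for uptake and the lowest for efflux. Single genes weigh heavily in both means. Congenic replicate 1 read 6528 for Slc22a12, where the other congenic rats read 4743 and 4300. For Abcb1a, a gene of low signal, it read 210, where they read 307 and 378. The order of the rats is therefore no trait of either group of carriers.

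**Figure D4:**
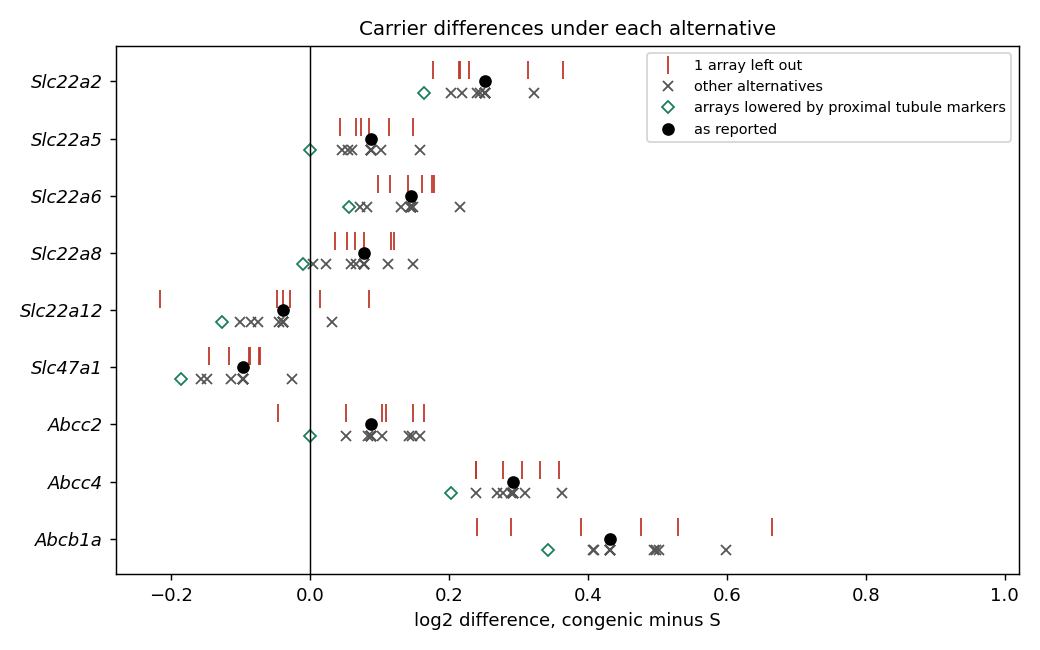
Log2 difference of each carrier, congenic minus S, as reported (black), with 1 array left out (red ticks), under other settings of the processing (crosses) and with arrays lowered by their proximal tubule markers (green diamonds). The values of Abcc4 lie between 0.20 and 0.36 and those of Slc22a12 on both sides of 0.

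The wider transport system was followed in 73 further genes in 5 lists, of which 60 were on the array and 53 tested. Of the 53, 30 had positive and 23 negative differences, 0 passed adjusted p 0.05, and 8 (15.1%) had unadjusted p under 0.05, 7 higher and 1 lower, against 10.3% over the array. With arrays centred on their medians, where 62.6% of all probe sets were positive, the split moved to 38 positive and 15 negative. All congenic rats lay above all S rats for 11 of the 53 genes and below them for 2. Over the array these shares were 7.98% and 7.99%.

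Other uptake carriers were evenly split, with 10 positive and 10 negative of 20 tested and a median of -0.01, and 15 positive with median centring. Slco4a1, an organic anion transporting polypeptide, had -0.49, with 422 ± 65.6 in congenic and 594 ± 92.1 in S kidneys (limma, unadjusted p = 0.00762, adjusted p = 0.302). All congenic rats lay below all S rats for this gene, with a highest congenic value of 494 and a lowest S value of 517. Slc22a23 had 0.24 and Slc22a15 0.30, both family members of OAT1, with adjusted p of 0.469 and 0.507. Slc22a7 (OAT2) had -0.05.

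Other efflux pumps and apical anion carriers had 5 positive and 3 negative of 8 tested (4 of each after quantile normalisation), with 0 at unadjusted p under 0.05. Those of smallest p were Abcc6 at 0.33, the anion carrier Slc17a1 at 0.12 and Abcc3, a conjugate pump, at -0.18. Abcg2, the brush border pump for urate and sulphated conjugates, read 2097 ± 328 in congenic and 2076 ± 84.3 in S kidneys, a difference of 0.00382.

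Genes that supply counter-ions or anchor the carriers had 6 positive and 3 negative of 9 tested, with a median of 0.10 (0.05 with 5 positive after quantile normalisation, as without S replicate 2). Slc13a2, the brush border carrier that recovers citrate and dicarboxylates, read 3561, 2613 and 3217 in congenic rats, against 2783, 2428 and 2570 in S rats. The strains overlapped through congenic replicate 2 and S replicate 1, and its difference was 0.26 (limma, unadjusted p = 0.0279, adjusted p = 0.421). The scaffold gene Nherf1 had 0.14 and the sodium-proton exchanger gene Slc9a3 0.14, with adjusted p of 0.515 and 0.586. For Nherf1, Slc9a3 and the scaffold gene Pdzk1 all congenic rats lay above all S rats, 3 of 9 genes where 7.98% of the array did so. For Pdzk1 the lowest congenic value, 12488, was close to the highest S value, 12441.

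Regulators had 3 positive and 4 negative differences of 7 tested. Hnf4a, a nuclear receptor that drives many proximal tubule genes, organic anion transporters among them, read 11235, 11997 and 11973 in congenic rats, against 10378, 9571 and 10146 in S rats. All congenic rats lay above all S rats, and the difference was 0.23 (limma, unadjusted p = 0.00854, adjusted p = 0.309). Stat5b, a mediator of growth hormone signals, had 0.92, with adjusted p = 0.229. Nr1i3, the xenobiotic receptor CAR, was under the filter, with 14.0 in congenic and 40.1 in S kidneys, close to the floor of 12.3.

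Enzymes of conjugation and of glutathione synthesis make substrates of the ABCC pumps. Their genes had 6 positive and 3 negative of 9 tested (5 positive after quantile normalisation), with 3 at unadjusted p under 0.05. The glutathione transferase Gstp1 read 9450, 8946 and 9309 in congenic rats, against 7704, 7442 and 7695 in S rats. All congenic rats lay above all S rats, and the difference was 0.28 ± 0.07 (SE; limma, unadjusted p = 0.00163, adjusted p = 0.226). The glucuronosyltransferase Ugt2b35 had 0.40 (adjusted p = 0.229) and the glutathione synthetase Gss 0.25 (adjusted p = 0.279).

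**Figure D5:**
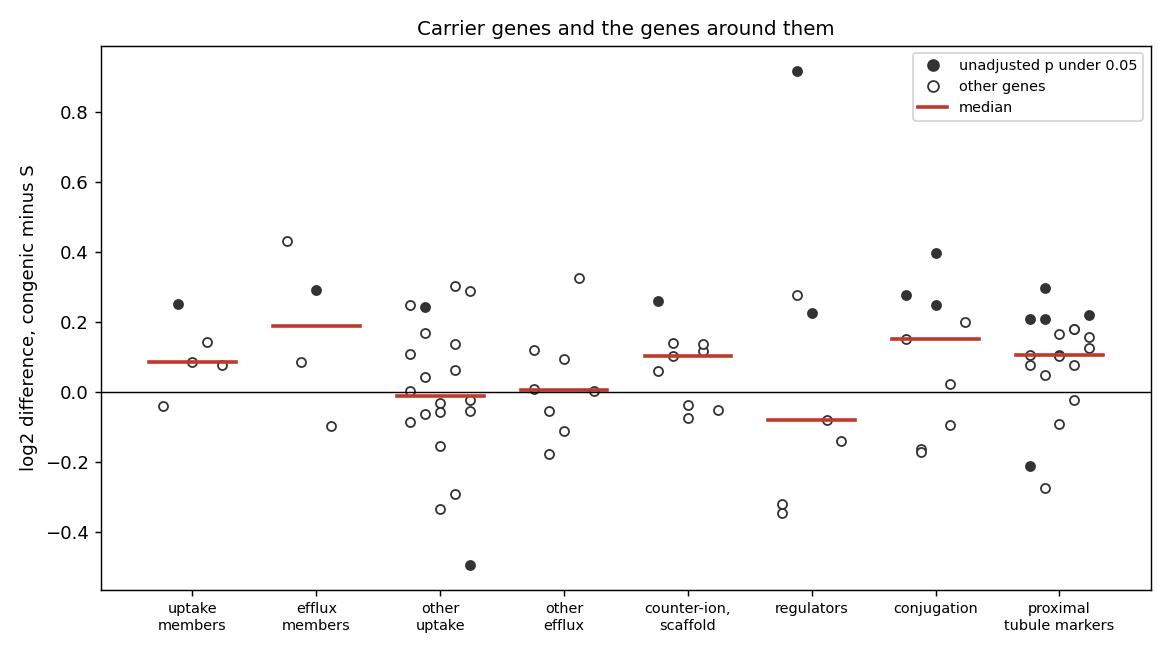
Log2 difference, congenic minus S, of each tested gene (points; filled where limma's unadjusted p is under 0.05) in the 2 carrier groups, the 5 wider lists and the proximal tubule markers, with the median of each as a red line. Medians run from -0.08 for regulators to 0.19 for the efflux carriers.

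The genes most like 2 of the carriers across the 6 rats were sought among 9325 other tested genes, by the mean absolute difference between log2 values centred on each gene's own mean. For Slc22a6 they were Ndufaf3 (0.0197), Rnf103 (0.0203) and Ube2k (0.0232), where the median gene differed by 0.145. For Abcc4 they were Coq9 (0.0267), Supt5h (0.028) and Bdh1 (0.03), where the median gene differed by 0.186. The match is a description of these 6 arrays.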

How the data were processed

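Kidney RNA of 3 congenic and 3 S rats was measured on 6 one-colour Affymetrix arrays. The deposited tables hold linear intensities, 1 per probe set, which the submitters' processing notes credit to GCOS 1.4. Its settings and detection calls were not stated. The trimmed mean (2% off either end) was alike on all arrays, so they had been scaled before deposit.

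Of 31099 probe sets, 57 controls were left out. Values under the 10th percentile of the table (12.3) were raised to it, log2 was taken, and the 15521 probe sets with a mean above the median were tested with limma 3.58.1 in R 4.3.3 (intensity trend, prior degrees of freedom 10.7), with Benjamini-Hochberg adjustment over all of them. The median standard error was 0.14, and the number of arrays limits the precision. A probe set under the filter takes its value from a fit of all 31042. A 2-sided exact permutation test was added for the carriers. Symbols come from the platform annotation, updated through Entrez identifiers (20826 with 1 symbol, 436 with several, 9780 with none).

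The members, the lists and the tests were chosen with earlier results of these data known. Named are all members, up to 3 genes of smallest p in each wider list, and the 3 genes most like Slc22a6 and Abcc4. Slc22a7, Abcg2 and Pdzk1 were named after their values were seen. The procedure was tested on simulated data. The fit was repeated with another floor, a pseudocount of 16 in its place, no filter, 3 normalisations between arrays and no variance trend. Further repeats used array weights, title number as a block, the mean over a gene's tested probe sets, and each array left out. That mean differed from the main value for Slc22a8 alone (0.06 against 0.08), as the second probe set of Abcb1a was not tested. Subtracting the proximal tubule markers was chosen after seeing the data. Plots were made with matplotlib 3.10.9.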

Additional observations from a re-analysis of the deposited data

How the results depend on the processing

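Over 162 combinations of 1 of the 9 carriers with 1 of 18 alternatives, 155 kept the sign of the difference. The other floors, no filter and no variance trend left every carrier's difference unchanged, so these settings are no check of the sign. Of the 153 combinations that had a test (the mean over a gene's tested probe sets had none), 0 passed adjusted p 0.05. The 7 that turned were small: Slc22a12 at 0.032 with median centring, 0.014 without congenic replicate 2 and 0.085 without congenic replicate 3 (against -0.22 without congenic replicate 1); Abcc2 at -0.047 without congenic replicate 2; and, with arrays lowered by their proximal tubule markers, Slc22a5 at -7.5e-04, Slc22a8 at -0.011 and Abcc2 at -7.2e-04. The count of carriers at unadjusted p under 0.05, 2 as reported, was 1 (Abcc4) without the filter on low signals, after cyclic loess and without the variance trend. With arrays lowered by the markers the count was 1, Slc47a1, lower in congenic kidneys, while Slc22a2 and Abcc4 (limma, unadjusted p = 0.117 and 0.0645) were not counted. Those tests take the marker deviations as known, which limits their p values. The count of carriers was 4 with median centring and 1 to 3 with 1 array left out. The uptake median moved to 0.16 with median centring and to -7.5e-04 with the markers subtracted, and was 0.078 to 0.14 with 1 array left out; the efflux median was then 0.10 to 0.23. The count of all probe sets past adjusted p 0.05 was 9 with median centring and 0 to 41 with 1 array left out (41 when S replicate 1 was dropped, 6 for the first congenic rat and 3 for the third), and that at unadjusted p under 0.05 was 2462 without the filter, where 31042 were tested, and 1144 to 1932 with 1 array left out. The causes of the other shifts were not tested.

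No paired analysis was possible because replicate numbers were given in accession order and the labels share none between strains. The number that opens each title (4, 13 and 14 in S, 7, 9 and 15 in congenic rats) has no stated meaning. Within titles under 10 and from 10 up, Abcc4 had log2 differences of 0.20 and 0.28, Slc22a2 0.39 and 0.09, Abcb1a 0.53 and 0.67, Slc22a12 0.09 and -0.29, Slc22a5 -0.0062 and 0.10, and Abcc2 0.12 and -0.016. Without detection calls, signals near the floor cannot be told from background.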

Other observations

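The spread of Slc22a12 differed between the strains more than that of the other carriers. Its coefficient of variation was 22.7% in congenic and 1.26% in S kidneys, and the SD of its log2 values was 17.4 times as large in congenic rats. A ratio at least as large was found for 0.457% of the 15521 probe sets tested. With 3 rats a strain this is a description and was not tested. Among the other carriers the ratio ran from 0.447 for Slc22a5 to 3.71 for Abcc2.

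Markers of other kidney cells had differences in both directions, and their part in the carrier values was not tested. Stroma and smooth muscle markers had 5 of 6 negative differences, with a median of -0.16 (-0.10 without congenic replicate 3) and summed intensities of 13586 to 16039 in congenic and 14692 to 18426 in S kidneys. Loop of Henle and distal tubule markers had 5 of 7 negative, with a median of -0.10, which was -0.01 without S replicate 3 and -0.03 with median centring. With median centring the negative counts were 4 of 6 and 4 of 7. Summed intensities of the loop and distal markers were 71293 to 80257 in congenic and 68389 to 79277 in S kidneys. Umod, the marker of highest signal in that list, had a positive difference of 0.25, and Slc12a1 had -0.26 (limma, unadjusted p = 0.0359 and 0.0207). Both erythrocyte genes had negative differences, Hbb at -0.42 and Alas2 at -0.55.

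Endothelial markers had 4 of 5 positive differences (3 of 5 after quantile normalisation), and tested immune markers 4 of 5. Vwf, the von Willebrand factor gene of endothelium, had 0.63 with the lowest unadjusted p of all these lists, 0.00821. The macrophage gene Cd68 had 0.63, the complement gene C1qb 0.36 and the smooth muscle actin gene Acta2 -0.36, with unadjusted p in limma of 0.0142, 0.0362 and 0.0126. The negative differences among the tested endothelial and immune markers were those of Ehd3 at -0.42 and Ptprc at -0.35 (limma, unadjusted p = 0.0577 and 0.137). Kdr of the endothelial list had 0.0021. Collecting duct markers were split 4 to 4 and podocyte markers 2 to 2. No gene of these lists passed limma's adjusted threshold. The genes given here with values were chosen after their values were seen.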
